A study of Caenorhabditis elegans with 7 samples.

Results

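The lbp genes of Caenorhabditis elegans encode fatty acid binding proteins, small barrel-shaped carriers that hold a fatty acid in a closed pocket and move it through water between membranes, enzymes and receptors. The members described here are the rows of the deposited gene table named lbp-1 to lbp-9, which are 9 of 46778 genes. Whole animals at the L4 larval stage were compared by RNAseq. The 3 WT libraries came from unselected animals of the N2 strain. The 4 WT Late libraries came from N2 animals whose line had been continued, for at least 50 generations, through the progeny laid on day 3 of adulthood. Both groups were grown from synchronized L1 larvae on OP50 bacteria, and both started from N2 with no engineered allele or transgene. The paper reports variants in coding regions from genome sequencing of WT Late animals, and variants were not analysed here. Whether the 4 WT Late libraries stand for separate selected populations is not stated, so the p-values measure only the spread between libraries.

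In worms some of these proteins are known as signals as well as carriers. LBP-1, LBP-2 and LBP-3 carry predicted secretion signals, and related secreted proteins of the parasite Ascaris are found in the fluid around the embryo. LBP-3 is known to leave the intestine with a lysosomal lipid signal that reaches neurons. LBP-5 and LBP-8 stay in the cell and are known to serve the nuclear receptor NHR-49, and LBP-8 carries fatty acids released by the lysosomal lipase LIPL-4 into the nucleus. The comparison asks whether transcripts of these carriers differed between the groups.

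The members lie in groups along the chromosomes. Coordinates are as deposited, on a build not given in the sources used here. All 9 overlap their place in the WBcel235 annotation on the same strand, with 3 at identical coordinates. The secreted trio sits in a row on the plus strand of chromosome X, with lbp-3 (WBGene00002255) from 3257010 to 3258155, lbp-1 (WBGene00002253) from 3259087 to 3259855 and lbp-2 (WBGene00002254) from 3260610 to 3261470. They are 931 and 754 bases apart with no other gene of the table between them. On the minus strand of chromosome I, lbp-6 (WBGene00002258) runs from 6728290 to 6729376 and lbp-5 (WBGene00002257) from 6731267 to 6732280, with the gene ant-1.2 between them. On the plus strand of chromosome V, lbp-7 (WBGene00002259) runs from 13879552 to 13880213 and lbp-8 (WBGene00002260) from 13890679 to 13891364, with 3 other genes between them. Also on V are lbp-9 (WBGene00021486), from 2068449 to 2069143, and lbp-4 (WBGene00002256), from 7820578 to 7821477. All are short, with listed gene lengths from 485 to 986 bases and 2 to 4 exons in the longest annotated transcript. The genes lbp-6 and mec-6, on opposite strands, share 41 bases. Values for mec-6 lay between 0 and 0.980 rescaled FPKM, far below those of lbp-6. Related family members can share reads where their sequences are alike, which was not examined.

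Between 17553893 and 20961698 reads on genes were recovered per library. WT Late replicate 3 stood apart from the other libraries. Ribosomal protein genes took 13.2% of its reads against 24.1% to 35.6% in the others, and it had a read on 18490 genes against 11069 to 16297. Results are therefore also given without it. Markers of intestine, body wall muscle, epidermis, germline and neurons were above 0 in every library, while the sperm genes spe-9 and spe-11 were at 0 in WT Late replicate 2. All 6 germline markers and all 5 tested sperm markers had log2 fold changes below 0, with medians of -0.74 and -0.54, and none was called. Medians for intestine, body wall muscle and neurons were -0.07, -0.01 and -0.03, also with none called. Of 5 markers of the adult stage, the yolk protein genes vit-5 and vit-6 were called lower in WT Late animals. This stands beside 0.182% of all tested genes called lower. The median log2 fold change of the 5 was -2.34, the value of the yolk protein gene vit-2. The others, col-19 and rme-2, were at -1.15 and -0.06 and were not called. Among 6 epidermis markers dpy-7, a collagen gene expressed ahead of each molt, was called higher, beside 0.667% of all tested genes. Its log2 fold change was 2.96. This gene did not stand for the list, whose median was 0.10, with 4 log2 fold changes above 0 and 2 below. In whole animals, fewer cells of a type and less RNA per cell cannot be told apart.

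Levels are given as rescaled FPKM, which is FPKM, a read count corrected for gene length and sequencing depth, put on a shared scale across libraries by the median of gene-wise ratios. The family spans a wide range. Over the 7 libraries the mean rescaled FPKM was 1568 for lbp-6, 884 for lbp-2, 370 for lbp-9, 114 for lbp-5, 80.2 for lbp-7, 64.2 for lbp-3, 54.1 for lbp-1, 38.2 for lbp-4 and 1.67 for lbp-8. By this mean lbp-6 ranked 145 and lbp-2 ranked 228 among the 13194 genes tested. At the other end lbp-8 ranked 10230. The order held in every library for lbp-6 over lbp-2, for lbp-9 over lbp-5, for lbp-5 over lbp-7 and for lbp-4 over lbp-8. The levels of lbp-7, lbp-3, lbp-1 and lbp-4 were not separated, since each exceeded the next in 5, 5 and 6 of 7 libraries and their ranges overlapped in both groups. Only the steps from lbp-9 to lbp-5 and from lbp-4 to lbp-8 had ranges that did not overlap in either group.

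**Figure D1:**
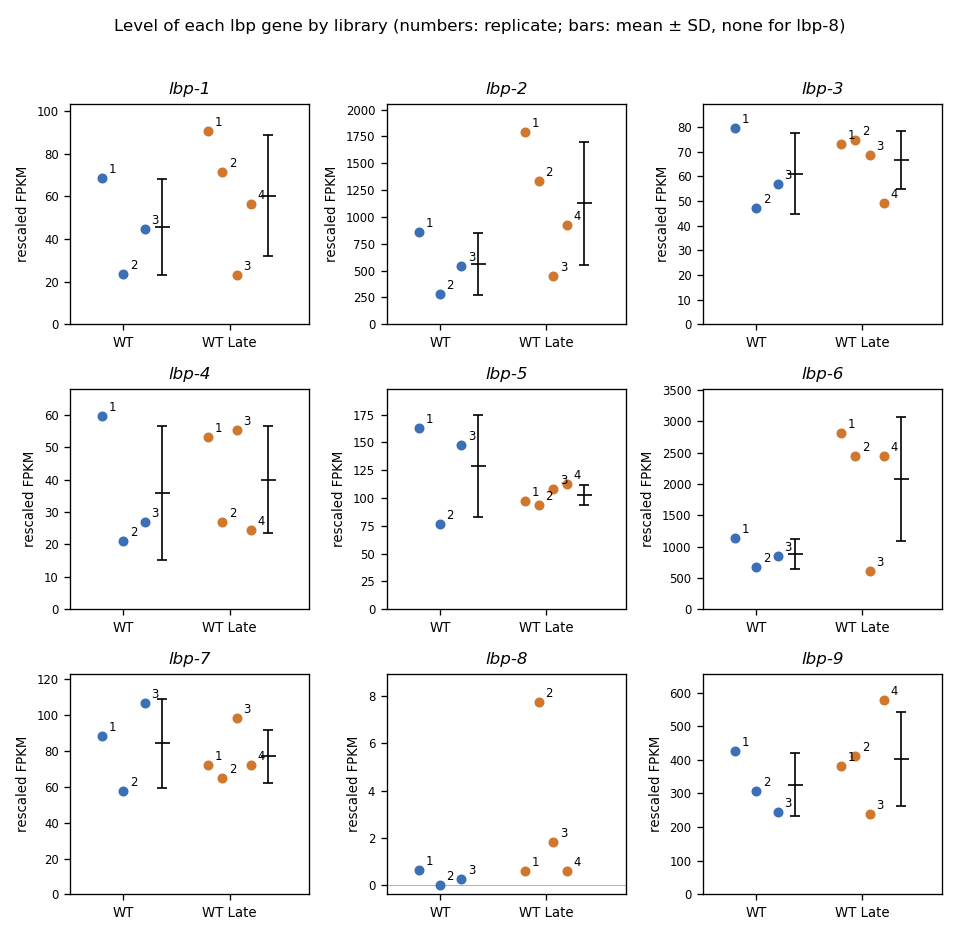
Rescaled FPKM of each lbp gene (vertical axis, from 0) in the 3 WT and 4 WT Late libraries, with the replicate number beside each point and the mean ± SD to the right of the points (none for lbp-8, which is at 0 in a library). For lbp-6, WT Late replicates 1, 2 and 4 lie between 2440 and 2820, above all WT libraries, and replicate 3 lies at 616, below them on this scale, though not in FPKM as deposited or by share of the reads on genes.

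For the comparison, the log2 of rescaled FPKM plus 0.5 was fitted with limma across the 13194 genes that reached an FPKM of 0.5 in 3 or more libraries. All 9 members passed that minimum. For lbp-8 it was met in 4 WT Late libraries and 1 WT library, and for the others in all 7. No member was called in either direction at an adjusted p under 0.05 (limma, Benjamini-Hochberg over all genes tested), beside 0.667% of all tested genes called higher, 0.182% called lower and 0.849% called either way. In rescaled FPKM, for no member was every WT Late library above every WT library, which held for 4.67% of tested genes, or below it, which held for 5.09%. At an unadjusted p under 0.05 from limma there was 1 member, lbp-8, beside 8.89% of all tested genes. It met the minimum through the WT Late libraries, so nothing is read from this p, and with no minimum its unadjusted p from limma was 0.0777. Adjusted p-values of the members lay between 0.557 and 0.956. Of the 9 log2 fold changes, 7 were above 0 and 2 below, with a median of 0.27. The median over all tested genes was -0.13, so the members' median was 0.40 above it. The 95% intervals from limma were between 1.49 and 3.17 log2 units wide, and for 6 of the 9 members they included a log2 fold change of 1.

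**Figure D2:**
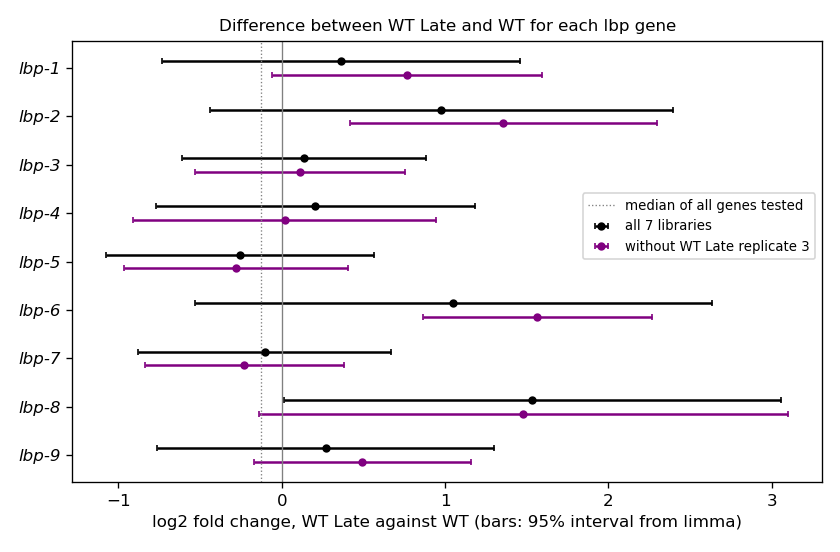
Log2 fold change of each lbp gene, WT Late against WT, with its 95% interval from limma, for all 7 libraries and without WT Late replicate 3; the dotted line is the median of all genes tested, -0.13. With all libraries the intervals of 8 members include 0 and that of lbp-8, from 0.01 to 3.06, includes 0 once the minimum FPKM is dropped, while without WT Late replicate 3 the intervals of lbp-6 and lbp-2 lie above 0.

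The most abundant member, lbp-6, encodes an intracellular protein and neighbours lbp-5. Its rescaled FPKM was 1137, 671 and 848 in WT replicates 1 to 3, and 2820, 2441, 616 and 2440 in WT Late replicates 1 to 4. On this scale 3 of the 4 WT Late libraries were above every WT library and WT Late replicate 3 was below them all. The place of replicate 3 turned with the scaling. In FPKM as deposited it was at 848, inside the WT range of 694 to 1141, with the other WT Late libraries at 2071 to 2492. As a share of the reads on genes it was at 0.0808%, and all WT Late libraries, from 0.0745% to 0.135%, were above the WT libraries, from 0.0423% to 0.0562%. How many of all tested genes were separated on that scale was not counted, so nothing is read from this separation. With libraries scaled to their reads on genes, a setting added after the data were seen, the log2 fold change was 1.00 (95% interval 0.37 to 1.63, adjusted p = 0.321 from limma). In rescaled FPKM, the mean was 885 ± 235 (SD, n = 3) for WT libraries, against 2079 ± 992 (SD, n = 4) for WT Late libraries. In rescaled FPKM the log2 fold change was 1.05 (95% interval -0.53 to 2.64, standard error 0.73, adjusted p = 0.730 from limma). A two-sided exact permutation test gave p = 0.143, where 0.0286 is the smallest p that 3 against 4 libraries allow.

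Without WT Late replicate 3 the result for lbp-6 was different. The other WT Late libraries had a mean of 2567 ± 219 (SD, n = 3) and were all above every WT library, as they were for lbp-2 and for 13.7% of the genes tested. The log2 fold change was 1.56 (95% interval 0.86 to 2.27, standard error 0.32, adjusted p = 0.0211 from limma). In that fit lbp-6 was the single member called, beside 2.86% of 12640 genes called higher and 2.23% called lower. With all libraries it was also called after quantile normalization (log2 fold change 1.19, adjusted p = 0.0237 from limma) and with libraries weighted by their estimated quality (1.49, adjusted p = 0.0423). Over all alternatives its log2 fold change lay between 0.83 and 1.67 and its adjusted p from limma between 0.0211 and 1.00. Beside the low value in WT Late replicate 3 stand the summed levels of 8 intestine markers, none of them at 0, which were 6620 to 9519 in WT and 2093 in WT Late replicate 3 against 9435 to 20107 in the other WT Late libraries. Summed body wall muscle and epidermis markers were also at their lowest there, at 1354 and 929. Summed germline markers were at 150 there, inside the WT range of 83.4 to 226. In the other WT Late libraries they were at 38.8 to 80.1, below all WT libraries. A few abundant genes such as asp-1 and act-5 carry the intestine sum. In rescaled FPKM each intestine marker but pept-1 was at its lowest of all libraries there, also the less abundant ges-1 and elt-2, at 11.4 and 8.26. The exception, pept-1, was at 32.1 there, beside 23.0 to 39.7 in the other WT Late libraries and 40.2 to 55.9 in WT. All these marker values are in rescaled FPKM, and some turned with the scaling. In reads, elt-2 had 561 in WT Late replicate 3 against 170 to 542 in the other libraries. For ges-1 there were 862 reads against 520 to 943, while asp-1 and act-5 had their fewest reads in that library. The part of these markers in the lbp-6 result was not tested.

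The gene lbp-5, next to lbp-6 on chromosome I, encodes a carrier known to act with NHR-49. Its rescaled FPKM was 163, 76.5 and 148 in the WT libraries and 97.2, 94.1, 108 and 113 in the WT Late libraries. All WT Late values thus lay inside the WT range, in rescaled FPKM and also in FPKM as deposited. By share of the reads on genes they did not. There WT Late replicate 3, at 0.0129%, was above the WT libraries, from 0.00438% to 0.00801%. The other WT Late libraries, from 0.00313% to 0.00422%, were below them. The log2 fold change was -0.25 (95% interval -1.07 to 0.57, adjusted p = 0.879 from limma). These neighbours on the chromosome therefore had different profiles. The ratio of lbp-6 to lbp-5, taken within each library and so free of library scaling, was 6.99, 8.78 and 5.73 in WT, 29.0, 26.0 and 21.7 in WT Late replicates 1, 2 and 4, and 5.70 in WT Late replicate 3.

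Of the secreted trio, lbp-2 was the most abundant. Its rescaled FPKM was 858, 280 and 545 in WT, and 1790, 1336, 453 and 926 in WT Late animals. As for lbp-6, 3 of 4 WT Late libraries were above all WT libraries, and WT Late replicate 3 lay within the WT range. By share of the reads on genes replicate 3, at 0.0847%, was also above all WT libraries, from 0.0251% to 0.0605%, and replicate 4, at 0.0402%, was within their range. The log2 fold change was 0.98 (95% interval -0.44 to 2.40, standard error 0.65, adjusted p = 0.715 from limma), and the exact permutation test gave a two-sided p of 0.2. Without WT Late replicate 3 it was 1.36 (95% interval 0.42 to 2.30, adjusted p = 0.0813 from limma), and without WT replicate 2, the lowest WT library, it was 0.54.

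The neighbouring lbp-1 had lower levels and a similar profile. Its rescaled FPKM was 68.8, 23.8 and 44.5 in WT and 90.6, 71.6, 22.9 and 56.6 in WT Late animals, so the groups overlapped. The log2 fold change was 0.36 (95% interval -0.73 to 1.46, adjusted p = 0.875 from limma), and it was -0.04 without WT replicate 2. The third of the row, lbp-3, whose protein carries a lipid signal from intestine to neurons, was the steadiest of the trio. Its rescaled FPKM was 79.5, 47.3 and 56.7 in WT and 73.2, 74.9, 68.5 and 49.4 in WT Late animals. All WT Late libraries lay inside the WT range, and the log2 fold change was 0.13 (95% interval -0.61 to 0.88).

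Within the trio, lbp-2 was compared with lbp-1 inside each library. The ratio of lbp-2 to lbp-1 was 12.5, 11.8 and 12.2 in WT, and 19.8, 18.7, 19.8 and 16.4 in WT Late animals. Its means were 12.2 ± 0.364 (SD, n = 3) and 18.6 ± 1.60 (SD, n = 4), and WT Late replicate 3, at 19.8, was with its group. This ratio was singled out after all 28 ratios between 2 members other than lbp-8 had been computed. It was the 1 ratio of the 28, or 3.57%, in which the groups did not overlap. Among all ratios of 2 tested genes above 0 in every library this share was 11.7%, so the count of 1 is below the background, and no test was made of the ratio. The ratio of lbp-2 to lbp-3 was 5.92 to 10.8 in WT and 17.8 to 24.4 in WT Late animals, except for WT Late replicate 3 at 6.61.

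**Figure D3:**
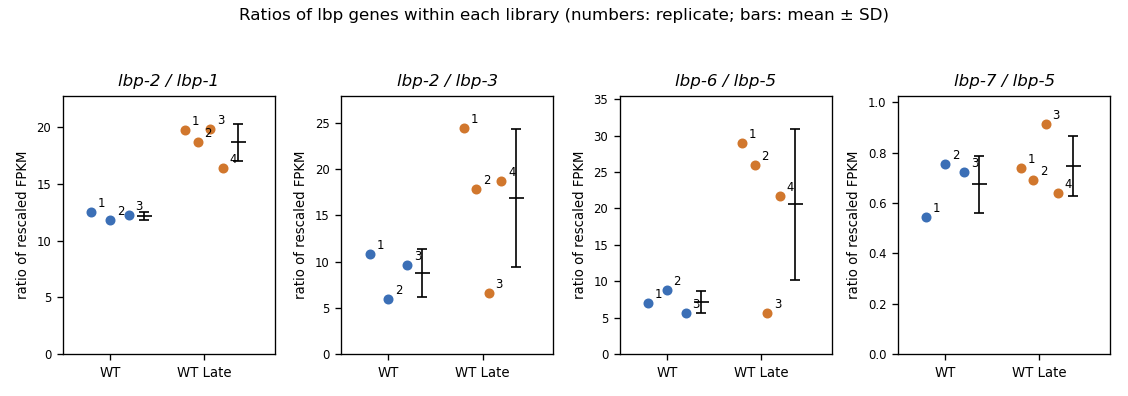
Ratio of rescaled FPKM of 2 lbp genes (vertical axis, from 0) within each library, with replicate numbers and the mean ± SD of each group. For lbp-2 over lbp-1 the WT libraries lie between 11.8 and 12.5 and all WT Late libraries between 16.4 and 19.8, while for lbp-6 over lbp-5 and lbp-2 over lbp-3 WT Late replicate 3 lies with the WT libraries.

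The lipid chaperone gene lbp-8 was the rarest member and rests on few reads. There were 7, 0 and 4 reads in WT replicates 1 to 3, and 7, 76, 49 and 4 in WT Late replicates 1 to 4. WT Late replicates 2 and 3 were above every WT library, while replicates 1 and 4 were at the level of WT replicate 1. In rescaled FPKM the WT libraries had 0.622, 0 and 0.282, and the WT Late libraries 0.599, 7.73, 1.81 and 0.620. A count of 0 allows up to 3 reads, or 0.207 rescaled FPKM in WT replicate 2, for counting error only. The log2 fold change was 1.53 (95% interval 0.01 to 3.06, standard error 0.70, adjusted p = 0.557 from limma). With no minimum FPKM the interval was -0.21 to 3.28, and with FPKM as deposited -0.08 to 3.23. The value depends on the pseudocount and on those 2 libraries, being 2.45 with a pseudocount of 0.1, 0.90 without WT Late replicate 2 and 0.55 without WT Late replicates 2 and 3.

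The remaining members showed smaller differences. The rescaled FPKM of lbp-9 was 427, 308 and 244 in WT and 381, 410, 239 and 578 in WT Late animals, and the groups overlapped (log2 fold change 0.27, 95% interval -0.76 to 1.30). For lbp-7, which neighbours lbp-8, the values were 88.4, 57.8 and 107 in WT and 72.0, 65.2, 98.7 and 72.2 in WT Late animals. All of the latter lay inside the WT range, with a log2 fold change of -0.10 (95% interval -0.88 to 0.67). For lbp-4 the values were 59.5, 21.0 and 26.9 in WT and 53.2, 26.8, 55.3 and 24.6 in WT Late animals, and again every WT Late library was inside the WT range. Its log2 fold change was 0.21 (95% interval -0.77 to 1.18). These places too are in rescaled FPKM. In FPKM as deposited WT Late replicate 3 was above the WT range for lbp-3, lbp-4 and lbp-7, at 94.4, 76.2 and 136. On that scale WT Late replicate 4 was below it for lbp-3 and lbp-4, at 41.9 and 20.8. By share of the reads on genes WT Late replicate 3 was above the WT range for all of these genes. Below it were WT Late replicate 4 for lbp-3, replicates 2 and 4 for lbp-4, and replicates 1, 2 and 4 for lbp-7.

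Likeness of profiles did not always follow position on the chromosome. It was measured as the root mean square difference between log2 profiles centred on their mean over the 7 libraries, and all members share those libraries. Among the 36 pairs the smallest difference, 0.21 log2 units, was between lbp-5 on chromosome I and lbp-7 on chromosome V. Next came lbp-1 and lbp-2, neighbours on X, at 0.32, while lbp-1 and its other neighbour lbp-3 differed by 0.62. The neighbours lbp-5 and lbp-6 differed by 0.98 and the neighbours lbp-7 and lbp-8 by 1.26. With its few reads, lbp-8 differed from every member by 1.07 to 1.30, so its value says nothing about position. Profiles of lbp-6 and lbp-2, on different chromosomes, differed by 0.36. Outside the family, the 3 tested genes nearest to lbp-6 by this measure were K06A4.7 at 0.08, ilys-5, a lysozyme gene of the invertebrate type, at 0.14, and Y48G8AL.13 at 0.15. None of these was called.

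**Figure D4:**
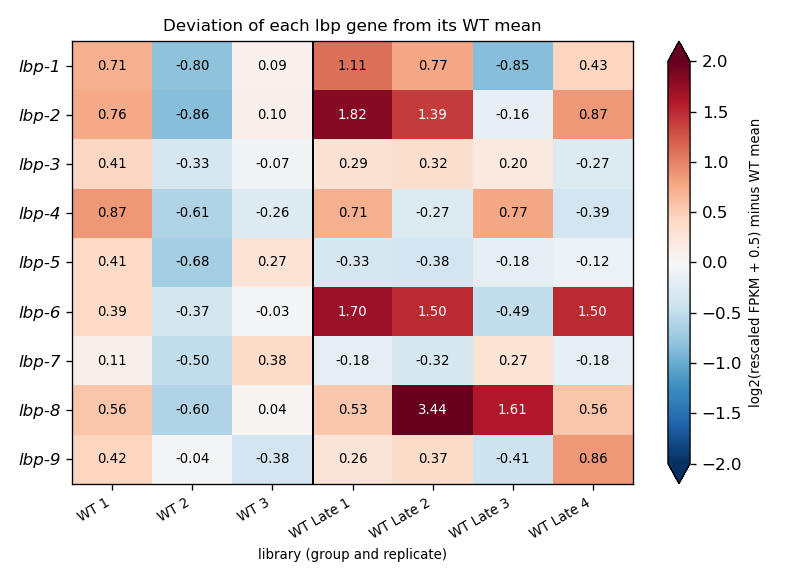
Difference of log2(rescaled FPKM + 0.5) of each lbp gene (rows) from its WT mean in each library (columns), with the value printed and the colour scale ending at 2 log2 units. For lbp-6 the WT Late libraries are at 1.70, 1.50, -0.49 and 1.50, while for lbp-3, lbp-4, lbp-5 and lbp-7 no WT Late library is beyond the range of the WT libraries.

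Together the 9 members took 0.105% to 0.165% of the reads on genes in WT and 0.144% to 0.298% in WT Late libraries. The summed level, in rescaled FPKM, was 2129 ± 704 (SD, n = 3) for WT and 3957 ± 1602 (SD, n = 4) for WT Late libraries, with WT Late replicate 3 at 1663. By share of reads on genes that library was at 0.253%, above every WT library, so its place in the sum also turned with the scaling. As the abundant members, lbp-6 and lbp-2 made up 64% to 69.2% of this sum in WT. They made up 79.0% to 85.7% in WT Late replicates 1, 2 and 4 and 64.3% in WT Late replicate 3. By this share WT Late replicate 3 lay within the WT range.

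Other genes of these pathways were compared by lists. Among 9 known partners of the carriers, the receptor nhr-49, with 7.87 to 13 rescaled FPKM in WT and 10.7 to 12.9 in WT Late animals, had a log2 fold change of 0.13, and none was called. The list's median was -0.01. The most abundant of the others were the Mediator subunit gene mdt-15 (-0.90), the neuropeptide gene nlp-11 (-0.23) and hlh-30 (-0.68), which encodes a regulator of lysosomal genes. The lipase gene lipl-4, named here after its values were seen, had 0, 3 and 2 reads in WT and 117, 21, 91 and 18 reads in WT Late animals. All WT Late libraries were above all WT libraries, as were 4.67% of all tested genes. Its log2 fold change was 2.11, with an adjusted p of 0.127 from limma. As lipl-4 met the minimum FPKM through the WT Late libraries alone, nothing is read from this separation or p.

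Of 10 genes known as NHR-49 targets, 9 were tested and 2 were called higher, beside 0.667% of all tested genes, and none lower. They were acs-2, an acyl-CoA synthetase gene of mitochondrial fatty acid oxidation, and the desaturase gene fat-5, with log2 fold changes of 3.34 and 2.75 (adjusted p = 0.00623 and 0.00534 from limma). Both had been seen to differ in these data when the list was chosen. For acs-2 the WT libraries were at 0.228 to 0.486 rescaled FPKM. It met the minimum through the WT Late libraries, so nothing is read from its p. The list's median was 1.1. The desaturase genes fat-6 and fat-7 had 1.47 and 1.22 and were not called. For both, every WT Late library was above every WT library, as for 4.67% of tested genes. The list did not move one way, since 6 of the 9 log2 fold changes were above 0 and 3 below. Below 0 were the fatty acid oxidation gene ech-1.1 (-1.43, with every WT Late library below every WT library, as for 5.09% of tested genes), cpt-5 (-1.13) and hacd-1 (-0.57), none of them called. Without WT Late replicate 3, 5 targets were called, and without WT replicate 1, none was.

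Worms have other carriers of fatty acids. Of 8 genes for fatty acid and retinol binding proteins, 7 were tested and none was called, with a median log2 fold change of 0.35. The most abundant, far-2, was at 8235, 4732 and 6818 rescaled FPKM in WT and at 10987, 11158, 1651 and 17049 in WT Late animals. As for lbp-6, WT Late replicate 3 was below all WT libraries and the others above them. The gene far-1 had the same order, with 1978 to 3871 in WT, 754 in WT Late replicate 3 and 5229 to 7383 in the others. For far-3 every WT Late library was above every WT library, as for 4.67% of tested genes. Its log2 fold change was 2.41 (adjusted p = 0.0695 from limma). Of 7 genes for acyl-CoA binding proteins, which carry activated fatty acids, none was called, and the median was 0.08. The most abundant, acbp-1, was at 492 to 956 in WT and at 1346, 1001, 252 and 1418 in WT Late replicates 1 to 4.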

How the data were processed

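Total RNA of whole L4 animals was extracted with a Direct-zol kit and sequenced and counted by Novogene. The authors deposited FPKM per gene in 1 table with a column for each of 7 libraries. Aligner, counter and build were not given in the sources used here. FPKM times the deposited gene length came out as whole steps per library for 100% of nonzero values, within 0.02 of a step, which gave the reads. The library size behind the deposited FPKM was 0.675 to 1.79 times the reads on genes, highest in WT Late replicate 3. Reads on genes per library, 17553893 to 20961698, set the precision, and counting limits cover counting error only.

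Libraries were put on a shared scale by the median ratio over the 10634 genes above 0 in every one. The log2 of rescaled FPKM plus 0.5 was fitted with limma 3.58.1 (lmFit and eBayes with a variance trend, R 4.3.3) for genes that reached an FPKM of 0.5 in 3 or more libraries, with Benjamini-Hochberg adjustment and a threshold of 0.05. Fold changes are on that scale, which understates those of low genes. Exact permutation tests took all 35 splits. The procedure was tested on simulated data. Named genes are the 9 members, the 3 genes nearest in profile to the most abundant member, and called or the most abundant list members. Named after their values were seen were lipl-4, ech-1.1, cpt-5, hacd-1 and the markers spe-9, spe-11, pept-1, ges-1, elt-2, vit-2, col-19 and rme-2. Members and lists were chosen with earlier results of these data known. Alternatives were other scalings, pseudocounts and filters, no variance trend, library weights, the replicate number as a block, voom on the recovered reads, removal of the trend with gene length, and each library left out. Leaving out 2 WT Late libraries, a factor from abundant genes and scaling to the reads on genes were added after seeing the data. No sequences are shown.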

Additional observations from a re-analysis of the deposited data

Results flagged for a closer look

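For lbp-6, WT Late replicate 3 was far from the other 3 WT Late libraries, at 616 rescaled FPKM against 2440 to 2820. The gap made up 0.905 of the group's range on the log2 scale, above Dixon's critical value for 4 samples. In FPKM as deposited the share was 0.828, just under that value, and as a share of the reads on genes it was 0.137 for the lowest library, which was then WT Late replicate 4. This was the 1 case among 13 sets of WT Late values examined, and chance gives about 1 in 20.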

How the results depend on the processing

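Under 21 alternatives the members gave 188 log2 fold changes, of which 180 kept their direction and their side of the threshold, 4 passed the threshold, all for lbp-6, and 4 changed sign. With single libraries left out, the log2 fold change lay between -0.0433 and 0.767 for lbp-1, -0.0392 and 0.337 for lbp-3, -0.106 and 0.639 for lbp-4, and -0.360 and 0.0878 for lbp-7. Each changed sign once, lbp-7 without WT replicate 3 and the others without WT replicate 2, and none was called. The count of members called higher, 0 with all libraries, was 1 after quantile normalization, 1 with library weights and 1 without WT Late replicates 2 and 3 together. It was 0 to 1 with single libraries left out, and the call came without WT Late replicate 3. Members called lower stayed at 0. The cause was not tested. Over the table, 88 genes were called higher and 24 lower. With no filter these were 42 and 9, with library weights 500 and 558, after quantile normalization 43 were lower, and without WT Late replicates 2 and 3 there were 468 and 373. With libraries scaled to their reads on genes, added after the data were seen, there were 49 and 13. With single libraries left out they were 23 to 361 and 5 to 282.

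NHR-49 targets called, 2 in the reported fit, were 1 with no filter, 7 with library weights, 1 with voom, 1 when scaled to reads on genes, 5 without WT Late replicates 2 and 3 and 0 to 5 with single libraries left out. Fatty acid and retinol binding protein genes called, 0 in the reported fit, were 1 on FPKM as deposited, after quantile normalization, at a minimum FPKM of 5, with voom, with the factor from abundant genes and when scaled to reads on genes, 2 with library weights, 2 without WT Late replicates 2 and 3, and 0 to 2 with single libraries left out. Acyl-CoA binding protein genes called were 0, and 1 with library weights. Partners called were 0, with 1 under library weights and 0 to 1 with single libraries left out. Tissue and stage markers called, 3 in the reported fit, were 1 with no filter, 7 with library weights, 1 with the length trend removed, 7 without WT Late replicates 2 and 3 and 1 to 8 with single libraries left out.

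With the replicate number as a block, the log2 fold change of lbp-6 was 0.90 and no member was called. Deviations of same-numbered libraries from their group means correlated at 0.24, -0.09 and -0.18 across genes. Differently numbered libraries gave -0.33 to 0.31. Centring within groups this small ties the deviations together, so these values cannot decide whether same-numbered libraries share more than a number. At a minimum FPKM of 5, lbp-8 was not tested.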
